A study of Mus musculus with 6 samples.

Results

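The TNF superfamily ligands and receptors were examined in cultured mouse ILC2s (group 2 innate lymphoid cells) given toyocamycin or vehicle. Members were the genes of the deposited table whose symbol starts with Tnfsf or Tnfrsf, plus Tnf. The rule gave 34 of 25865 genes: 12 ligand genes, 20 receptor genes, the read-through gene Tnfsfm13 and the antisense gene Tnfsf13os. The source of the cells was the sorted large-intestinal ILC2 pool of C57BL/6 mice. Both groups spent 5 days in IMDM with 10 ng/mL of each of IL-33, IL-25, IL-7 and IL-2. The 3 toyocamycin samples then had the compound for 16 h, and the 3 Control samples had its vehicle. Toyocamycin is an adenosine analogue that is known to block the RNase of the stress sensor IRE1 and the processing of ribosomal RNA. No source used here gives its dose, names its vehicle or gives the age and sex of the mice. Cells kept in IL-25 and IL-33 are activated cells, so the Control is not a resting state. Whether replicates came from separate cultures or mice is not stated. The p-values therefore weigh the group difference only against the spread of these samples within groups, and that spread may be technical.

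TNF superfamily ligands are membrane proteins that act as trimers, on the cell or after shedding. Their receptors either carry a death domain, which recruits TRADD or FADD and caspase-8, or bind TRAF adaptors that turn on NF-kappaB and MAP kinases, while decoy receptors bind a ligand without signalling. In ILC2s, DR3 (Tnfrsf25) and GITR (Tnfrsf18) are known as costimulatory receptors, and OX40 ligand (Tnfsf4) is known as the molecule with which ILC2s costimulate T cells.

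Values are normalised read counts, that is, each gene's reads over the size factor of its sample. A pair of numbers joined by ± is a group's mean and SD (n = 3). Each adjusted p comes from limma run over all genes tested, and 0.05 was the threshold. Libraries held 22303455 to 36742639 reads. All 12 ILC2 markers were detected, and their summed value was 475664 to 490890 in Control and 414990 to 450411 with toyocamycin. Within that sum 4 rose and 7 fell, where 32.8% of all genes tested rose and 33.1% fell. With samples set to equal totals, 3 of the 12 rose and 9 fell. Markers called with the deposited scaling included Rora (13.1-fold higher), Gata3 (2.02-fold higher), Il13 (6.95-fold lower), Il7r (2.98-fold lower), Areg (2.52-fold lower) and Klrg1 (2.41-fold lower). Markers of other cells were present at low summed values: 454 to 517 and 348 to 367 for 8 T cell genes, 632 to 741 and 313 to 387 for 8 B and plasma cell genes, 891 to 1308 and 1087 to 1569 for 8 macrophage and dendritic cell genes, 192.2 to 248 and 196.8 to 217 for 7 epithelial genes, and 1384 to 1614 and 775 to 1062 for 8 fibroblast and endothelial genes, Control first in each. Krt20 was at 0 in every sample. In bulk RNA, fewer cells of a type and less RNA per cell cannot be told apart.

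The promoters of 5 members are shown because these genes hold most of the family's reads or changed most among the members with a Control mean of at least 500. Each is the 250 bases before a transcription start of the promoter table, on the gene's own strand (RefSeq, GRCm38.p6). They lie at chr4:145315165-145315414 (minus strand) for Tnfrsf8, chr4:145246871-145247120 (minus) for Tnfrsf1b, chr4:150919905-150920154 (plus) for the first of the starts listed for Tnfrsf9, chr3:27316827-27317076 (plus) for Tnfsf10 and chr1:105780473-105780722 (plus) for Tnfrsf11a. The start used for Tnfrsf11a lies 50 bases inside the annotated span of the gene, so the last 50 bases printed for it are within that span. Capitals mark matches on either strand to the NF-kappaB consensus, the AP-1 motif TGANTCA, the GATA motif AGATAA or the TATA motif TATAAA.
Tnfrsf8: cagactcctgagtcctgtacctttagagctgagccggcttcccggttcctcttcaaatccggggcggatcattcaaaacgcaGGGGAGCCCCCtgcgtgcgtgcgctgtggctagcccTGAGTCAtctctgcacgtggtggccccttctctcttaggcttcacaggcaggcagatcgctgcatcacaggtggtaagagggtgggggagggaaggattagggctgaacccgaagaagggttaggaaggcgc
Tnfrsf1b: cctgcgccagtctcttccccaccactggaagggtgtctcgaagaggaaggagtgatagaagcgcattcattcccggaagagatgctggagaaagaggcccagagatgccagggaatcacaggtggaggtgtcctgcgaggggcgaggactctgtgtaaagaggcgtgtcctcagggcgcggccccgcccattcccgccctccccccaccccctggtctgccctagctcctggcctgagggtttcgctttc
Tnfrsf9: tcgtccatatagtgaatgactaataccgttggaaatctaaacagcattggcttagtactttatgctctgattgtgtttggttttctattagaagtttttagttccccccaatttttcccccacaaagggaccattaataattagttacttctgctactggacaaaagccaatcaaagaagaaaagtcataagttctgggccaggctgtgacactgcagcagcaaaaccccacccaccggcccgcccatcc
Tnfsf10: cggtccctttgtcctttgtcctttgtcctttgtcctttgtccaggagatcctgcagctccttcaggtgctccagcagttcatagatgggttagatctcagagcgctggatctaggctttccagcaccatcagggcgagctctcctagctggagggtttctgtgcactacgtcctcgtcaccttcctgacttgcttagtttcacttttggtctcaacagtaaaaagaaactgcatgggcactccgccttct
Tnfrsf11a: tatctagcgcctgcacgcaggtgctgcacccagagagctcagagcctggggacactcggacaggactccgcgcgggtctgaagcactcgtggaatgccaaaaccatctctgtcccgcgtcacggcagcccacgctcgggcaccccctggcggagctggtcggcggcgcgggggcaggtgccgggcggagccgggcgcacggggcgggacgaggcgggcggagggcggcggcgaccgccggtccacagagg
In these windows only that of Tnfrsf8 held a match. Its NF-kappaB matches overlap each other and span bases 168 to 158 before the start, and its AP-1 match spans bases 132 to 126. Among the 26 members with an entry in the promoter table, 3 had an NF-kappaB match (Tnfrsf8, Tnfrsf9 and Tnfrsf25), 5 an AP-1 match, 1 a GATA match and 5 a TATA match, counting every listed start, and the match of Tnfrsf9 was at its other start. Of all 32851 promoters of this length, 7.25%, 6.75%, 9.99% and 12.4% held the respective motif. Those shares count each promoter singly, whereas a member counted if any of its starts matched, so they are not on the same basis. These matches describe letters and were not related to binding.

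Toyocamycin-treated ILC2s had lower normalised read counts for the costimulatory receptors CD30, CD137, GITR, OX40 and HVEM and for the ligands TRAIL (Tnfsf10) and CD137 ligand (Tnfsf9). Of these, CD137 fell only 1.29-fold, and the call of OX40 ended without Control replicate 1. The costimulatory receptor DR3 (Tnfrsf25) and TNFR2 (Tnfrsf1b) did not pass with the deposited scaling. Higher normalised read counts were found for OX40 ligand, RANK (Tnfrsf11a), osteoprotegerin (Tnfrsf11b) and the TWEAK receptor (Tnfrsf12a). Tnfsf4 was 17.2-fold higher and Tnfrsf11a 3.48-fold higher, whereas Tnfrsf13b was 21.1-fold, Tnfrsf8 5.28-fold and Tnfsf10 4.12-fold lower. Of the 34 members, 30 reached an average of 1 across the 6 samples and were tested. Among these, 6 rose, 11 fell and 13 did not pass. The 17 calls are to be read against 65.9% of all 16223 genes tested (32.8% higher and 33.1% lower), so a change as such does not set the family apart. At a change of at least 2-fold, 4 members were higher and 9 lower, against 17% and 20.5% of all genes (37.5% in either direction). The groups did not overlap in 20 of the 30, against 69.1% of all genes. With samples set to equal totals, 4 members were higher and 15 lower, and of all 16245 genes then tested 4040 were higher and 6897 lower. That scaling moved the median log2 change of all genes from -0.03 to -0.35, and that of the tested members from -0.02 to -0.36.

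**Figure D1:**
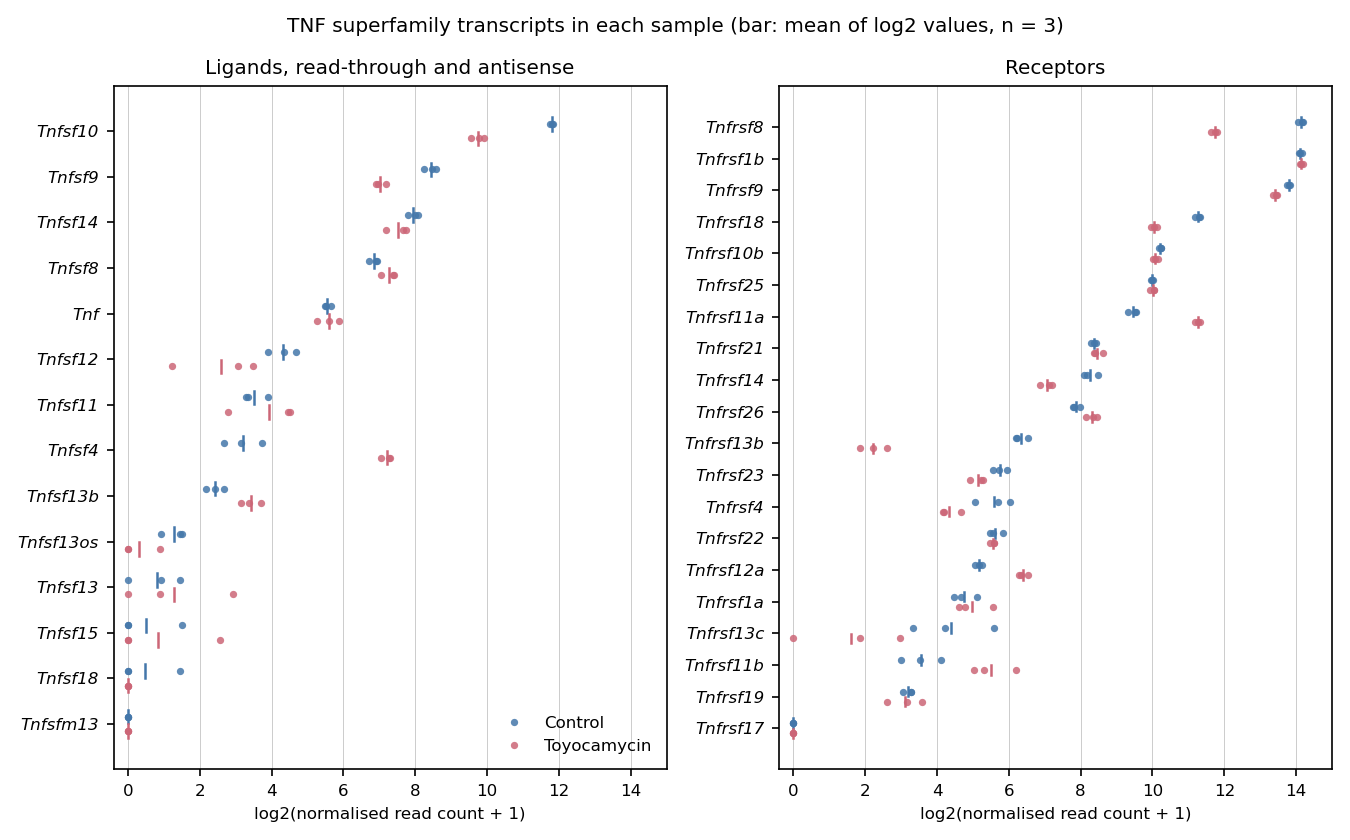
Each point is 1 sample, on the axis log2(normalised read count + 1), with genes in rows and short bars at the mean of the 3 log2 values of a group. Tnfsf4, Tnfrsf11a, Tnfrsf8, Tnfsf10 and Tnfrsf13b have the most separate groups, and the points of Tnfrsf1b and Tnfrsf25 lie on each other.

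The summed value of the family fell in every toyocamycin sample below every Control sample. It was 60245, 62278 and 60109 in Control replicates 1 to 3 and 41048, 42171 and 39209 with toyocamycin, or 0.255% to 0.263% of all normalised reads against 0.135% to 0.139%. Tnfrsf8, Tnfrsf1b and Tnfrsf9 held 81.7% to 82.4% of the family's reads in Control and 79.5% to 80% with toyocamycin. Within that, the share of Tnfrsf8 was 28.1% to 30.2% in Control and 8.05% to 8.74% with toyocamycin, and that of Tnfrsf1b was 28.7% to 29.5% and 44% to 45.1%. The shares of 1 sample sum to a whole, so they do not move separately.

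**Figure D2:**
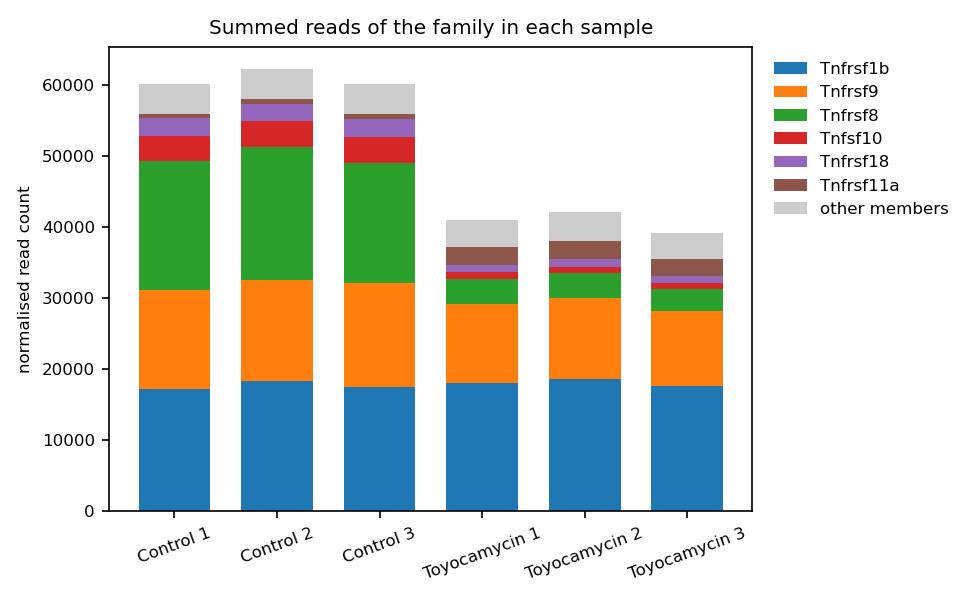
Bars give the summed normalised read count of the 34 members in each sample, starting at 0, divided into 6 members and all others. The 3 toyocamycin bars end between 39209 and 42171, below the Control bars, and the Tnfrsf8 part is the one that shrinks most.

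Per length of exon, the order of the receptors at the top also changed. In Control, Tnfrsf9 stood at 5233 normalised reads per kb and Tnfrsf8 at 5191, with overlapping ranges, and Tnfrsf1b followed at 4644 with a range below both. Tnfrsf18 came next at 1617, then the ligand Tnfsf10 at 678 and Tnfrsf25 at 444, each apart from its neighbours. With toyocamycin, Tnfrsf1b led at 4747 per kb, Tnfrsf9 had 4047, Tnfrsf8 983, Tnfrsf18 691, Tnfrsf25 453 and Tnfrsf11a 410, all with ranges that did not overlap. Tnfrsf11a had been at rank 11 in Control with 118 per kb. Tnfsf4 moved from 4.64 to 79.6 per kb, from rank 25 to rank 14. From rank 9 to rank 13 with toyocamycin (Tnfsf14, Tnfsf9, Tnfrsf26, Tnfrsf14, Tnfrsf21), each gene overlapped the next in its range. Exon lengths are unions over GENCODE transcripts, so a gene that uses few of its exons is understated.

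Among ligands, Tnfsf4 changed most. It encodes OX40 ligand, a costimulator of T cells, and lies on chromosome 1 (161395438 to 161418206, GRCm38). Its values were 5.44, 7.90 and 12.3 in Control and 132, 152 and 155 with toyocamycin, from 29 reads and 408 reads in all. Every toyocamycin sample was more than 10 times the highest Control sample. The log2 change was 4.01 (SE 0.36, adjusted p = 2.5e-09) and ran from 3.51 to 4.33 over all alternatives. Of 8 macrophage and dendritic cell markers, Cd68 rose from 448 ± 42.8 to 679 ± 8.86 and 7 did not pass. Their part in this result was not tested. Tnfsf18, the GITR ligand gene 76.5 kb away, had 2 reads in Control replicate 2 and none elsewhere.

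Tnfsf10 encodes TRAIL, which triggers apoptosis through DR5. It fell from 3477, 3682 and 3554 to 968, 876 and 755 (log2 change -2.05, SE 0.076, adjusted p = 1.08e-15). Its lowest Control sample was above 3 times the highest toyocamycin sample. Tnfsf9 encodes the ligand of CD137 and fell from 352, 302 and 381 to 124, 144 and 119 (log2 change -1.41, SE 0.15, adjusted p = 3.95e-08). Part of Tnfsf9, 656 bp, overlaps the gene Gm11110 on the other strand, and without a stated strand setting their reads cannot be told apart.

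With the deposited scaling, the other ligand changes were small or rested on few reads. Tnfsf14 encodes LIGHT, the ligand of HVEM, and was at 267, 220.3 and 252.8 in Control and 144, 199.9 and 215 with toyocamycin (log2 change -0.42, SE 0.16, adjusted p = 0.0303). That call ended with DESeq2 (adjusted p = 0.0606) and without Control replicate 1 (0.135), Control replicate 3 (0.0843) or toyocamycin replicate 1 (0.179), and the log2 change turned to 0.09 with quantile normalization. Tnfsf8 encodes CD30 ligand and was at 103, 119 and 120.2 against 166, 131 and 169. Its log2 change of 0.43 (SE 0.19, adjusted p = 0.0483) passed narrowly and was lost in 12 of 16 alternatives, among them edgeR (adjusted p = 0.0609), DESeq2 (0.0707), equal totals (0.697) and leaving out any sample except toyocamycin replicate 2, with adjusted p from 0.065 to 0.136. Quantile normalization gave a log2 change of 0.98 for Tnfsf8 (adjusted p = 0.000245), so its size changed with the scaling. Tnfsf12 encodes TWEAK, with 27, 16 and 22 reads in Control and 1, 12 and 6 with toyocamycin (3.08-fold lower, log2 change -1.73, adjusted p = 0.0179). Its call ended with DESeq2 (adjusted p = 0.0644) and without Control replicate 1 (0.0951), Control replicate 3 (0.0559) or toyocamycin replicate 1 (0.0916), and its log2 change was -1.04 without toyocamycin replicate 1 and -2.18 without toyocamycin replicate 2.

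Tnf, the founding cytokine of the family, had low and overlapping values, 43.5, 49.1 and 44.8 in Control and 58.1, 47.4 and 37.6 with toyocamycin. The log2 change was 0.04 with a 95% interval of -0.61 to 0.68 (adjusted p = 0.923). Tnfsf13b (BAFF, a survival factor of B cells) had 15 and 27 reads in all, with values that did not overlap, 3.51 to 5.44 against 7.92 to 12.1, but did not pass (log2 change 0.98, adjusted p = 0.151). Tnfsf11 (RANK ligand) was at 8.78 to 14.0 and 5.93 to 21.9 and did not pass (adjusted p = 0.54). Tnfsf13 (APRIL) and Tnfsf15 (TL1A, the ligand of DR3) had 9 and 6 reads over all samples. Of these, 5 reads of Tnfsf13 were in toyocamycin replicate 1 and 4 of Tnfsf15 in toyocamycin replicate 3. Neither passed (adjusted p = 0.677 and 0.771), and their Control means alone were under the filter.

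Among receptors that bind TRAF proteins, 7 of 11 tested fell, 2 rose and 2 did not pass, where 33.1% of all genes fell and 32.8% rose. Tnfrsf8 encodes CD30, a marker of activated lymphocytes, and lies on chromosome 4 (145267132 to 145315164). It was at 18214, 18757 and 16895 in Control and 3587, 3452 and 3157 with toyocamycin. Control samples were all above 4 times any toyocamycin sample (log2 change -2.40, SE 0.057, adjusted p = 1.76e-18). Its neighbour Tnfrsf1b, 20.3 kb away on the same strand, encodes TNFR2, which binds membrane TNF. Tnfrsf1b was at 17264, 18403 and 17521 and at 18053, 18636 and 17678, which overlap. Its log2 change was 0.03 with a 95% interval of -0.07 to 0.13 (adjusted p = 0.595) with the deposited scaling, but -0.32 with equal totals (adjusted p = 1.96e-07). Quantile normalization gave -0.45 (adjusted p = 6.67e-09). The call of Tnfrsf1b thus changed with the scaling, while the log2 change of Tnfrsf8 stayed between -2.85 and -2.35 in all alternatives.

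The costimulatory receptor CD137, encoded by Tnfrsf9, was lower by less: 13879, 14181 and 14673 in Control and 11081, 11439 and 10524 with toyocamycin (1.29-fold, log2 change -0.37, SE 0.05, adjusted p = 1.07e-06). The groups did not overlap. The log2 change was -0.72 with equal totals and -0.88 with quantile normalization. Tnfrsf9 lies wholly inside the span of Camta1 on the other strand. Tnfrsf18 encodes GITR and fell from 2513, 2320.5 and 2558 to 1051, 1112 and 998 (log2 change -1.22, SE 0.067, adjusted p = 5.79e-13). Of its exon sequence in stretches of 50 bases, 18.7% is also found in the antisense gene Gm16008. Tnfrsf4, which encodes OX40 and lies 9.71 kb from Tnfrsf18, was at 64.3, 32.5 and 50.9 in Control and 17.2, 24.6 and 17.0 with toyocamycin (log2 change -1.25, SE 0.39, adjusted p = 0.00704), a call that ended without Control replicate 1 (log2 change -1.04, adjusted p = 0.0559). With quantile normalization Tnfrsf4 passed only narrowly (log2 change -0.93, adjusted p = 0.0499). The receptor of LIGHT, HVEM (Tnfrsf14), fell from 359.7, 288.7 and 274.7 to 146.6, 137 and 115.3 (log2 change -1.20, SE 0.16, adjusted p = 9.15e-07). T cells also carry OX40, GITR and CD137. Of the T cell markers, Cd3e fell from 35.2 ± 0.778 to 6.13 ± 3.25 and Cd247 from 237 ± 8.31 to 53.8 ± 16.6, while Trac rose from 40.1 ± 16.0 to 81.8 ± 2.75, and their part in these results was not tested.

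Receptors known from B cells fell to few reads. Tnfrsf13b encodes TACI, a receptor of BAFF and APRIL, and lies on chromosome 11 (61126283 to 61153170). It had 102, 85 and 83 reads in Control and 2, 6 and 3 with toyocamycin (normalised means 79.95 ± 10.8 and 3.79 ± 1.23, log2 change -4.10, SE 0.44, adjusted p = 4e-08). Its log2 change ran from -4.41 to -3.28 over the alternatives. The annotated gene shares 1386 bp with Usp22 on the other strand. Tnfrsf13c encodes the BAFF receptor and had 10, 54 and 20 reads against 2, 8 and 0 (log2 change -2.77, SE 0.75, adjusted p = 0.00271). Control replicate 2 held most of its Control reads, and without it the log2 change was -2.16 (adjusted p = 0.0426), with a range of -3.45 (without toyocamycin replicate 2) to -1.97 (without toyocamycin replicate 3) when single samples were left out. Tnfrsf17 (BCMA) had no read in any sample, which allows up to 3 reads per library. Among B cell markers, Cd79b went from 391 ± 53.4 to 184 ± 16.3 and Ighm from 267 ± 3.46 to 132 ± 29.3, with Ms4a1 and Pax5 at means of 0.88 to 2.06 in both groups, and their part in these results was not tested.

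Of the receptors that rose, Tnfrsf11a and Tnfrsf12a are of the class that binds TRAF proteins, and Tnfrsf11b is a decoy. The receptor gene Tnfrsf26 is given below. Tnfrsf11a encodes RANK, known for osteoclast formation and lymph node development, and lies on chromosome 1 (105780673 to 105849444). It was at 635, 750.4 and 732 in Control and 2448, 2575 and 2347 with toyocamycin (log2 change 1.80, SE 0.074, adjusted p = 5.9e-15). The lowest toyocamycin sample was above 3 times the highest Control sample, and the log2 change was 1.45 with equal totals. Tnfrsf12a encodes Fn14, the receptor of TWEAK, and rose from 35.3, 32.5 and 36.9 to 92.4, 79.6 and 77.7 (log2 change 1.23, SE 0.28, adjusted p = 0.000614). Tnfrsf11b encodes osteoprotegerin, the soluble decoy of RANK ligand, and rose from 18, 12 and 8 reads to 24, 85 and 32, or from 11.3 ± 4.69 to 47.5 ± 21.5 normalised (log2 change 1.96, SE 0.45, adjusted p = 0.00068). Without toyocamycin replicate 2 its log2 change was 1.63 (adjusted p = 0.0128). Osteoprotegerin is made by stromal cells; the fibroblast gene Col1a2 went from 116 ± 10.5 to 58.1 ± 8.61, and Col1a1, Col3a1 and Pdgfra did not pass, and their part in this result was not tested.

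None of the 4 death domain receptors among the members passed the threshold with the deposited scaling, where 65.9% of all genes were called. With equal totals 2 of the 4 were lower. Fas, a death receptor whose symbol lacks the prefix, was called lower and is given with the other family genes below. Tnfrsf25 encodes DR3, the receptor of TL1A, and was at 993, 1013 and 1030.4 in Control and 1063, 1051 and 980 with toyocamycin. Its log2 change was 0.03 with a 95% interval of -0.12 to 0.18 (adjusted p = 0.769), or -0.32 with equal totals (adjusted p = 0.000249). Tnfrsf10b encodes DR5, the signalling receptor of TRAIL and a target of p53, and was at 1200.5, 1216 and 1162 against 1070, 1143 and 1030 (log2 change -0.14, 95% interval -0.29 to 0.00, adjusted p = 0.082). The groups did not overlap, and 5 alternatives called it lower, at -0.49 with equal totals (adjusted p = 2.13e-06), -0.20 with quantile normalization, -0.18 and -0.19 with edgeR with and without a filter, and -0.18 without toyocamycin replicate 2. Tnfrsf21 (DR6) was at 310, 347 and 328 against 337, 397 and 328 (log2 change 0.10, adjusted p = 0.462), and became higher with quantile normalization (0.50, adjusted p = 0.00106) and lower in direction with equal totals (-0.24, adjusted p = 0.0534). Tnfrsf1a (TNFR1) was at 33.5, 21.1 and 24.6 against 26.4, 23.7 and 46.1, so that the TNFR2 gene exceeded it per kb in both groups, 4644 against 10.2 in Control and 4747 against 12.4 with toyocamycin.

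Tnfrsf26, Tnfrsf22 and Tnfrsf23 lie side by side on chromosome 7, from 143607685 to 143686436. In mice, Tnfrsf22 and Tnfrsf23 encode decoy receptors of TRAIL. Tnfrsf26 rose from 222, 251 and 225 to 324, 348 and 282 (log2 change 0.45, SE 0.13, adjusted p = 0.00539), a call that ended with equal totals (0.10, adjusted p = 0.496). Its log2 change was 0.90 with quantile normalization (adjusted p = 1.455e-05). Tnfrsf23 was at 60.7, 51.8 and 46.5 against 29.1, 38.1 and 36.4 without passing (log2 change -0.60, adjusted p = 0.103), though it was lower with equal totals (-0.95, adjusted p = 0.0125). Tnfrsf22 was at 43.5, 56.2 and 46.5 against 47.5, 47.4 and 43.7 (adjusted p = 0.862). Of the 50-base stretches of Tnfrsf23 and Tnfrsf22, 19.3% and 27.4% occur in other genes, 719 of them in each other, so their counts are uncertain. Tnfrsf19 (TROY) had 28 and 21 reads in all and did not pass.

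**Figure D3:**
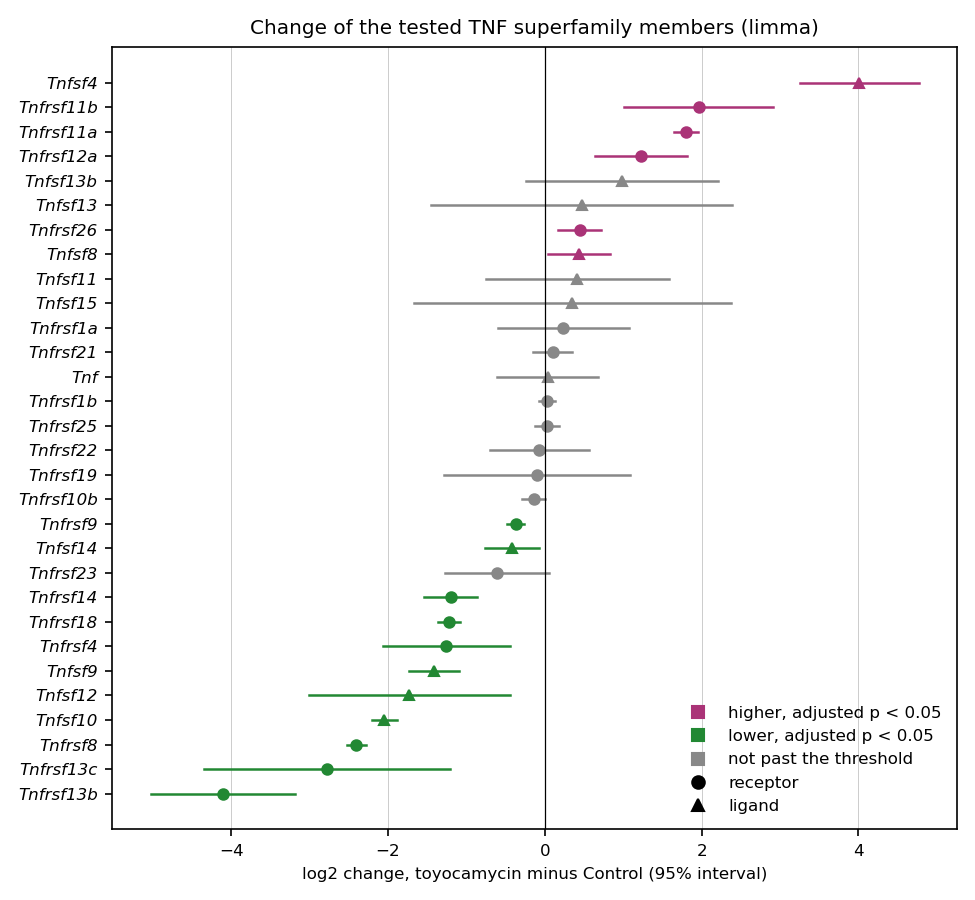
Points give the log2 change, toyocamycin minus Control, of the 30 tested members with 95% intervals from limma. Triangles mark ligands, circles receptors, and colours the side of the threshold. Tnfsf4 lies at 4.01 and Tnfrsf13b at -4.10, and the intervals of the 13 grey genes include 0.

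Levels per kb of ligands and their receptors are set side by side here. For OX40, the ligand Tnfsf4 went from 4.64 to 79.6 reads per kb while the receptor Tnfrsf4 went from 36.1 to 14.3, so their order was exchanged. For TRAIL, the ligand went from 678 to 165 per kb and the receptor DR5 from 219 to 198, so that the ligand was above its receptor in Control and below it with toyocamycin, with no overlap of ranges in either group. For CD30, the receptor Tnfrsf8 fell from 5191 to 983 and the ligand Tnfsf8 was at 30.0 and 40.8. For CD137, both fell, the receptor from 5233 to 4047 and the ligand from 267 to 100.03. For HVEM and LIGHT, both fell, from 214 to 92.5 and from 134 to 100.8, the latter with the limits given above. For TWEAK, the receptor went from 18.1 to 43.1 and the ligand from 12.7 to 4.13. The reads of Tnfsf12 cannot be told from those of the read-through gene Tnfsfm13, which was listed at 0 and holds 684 of its 50-base stretches. The differences between the changes of a ligand and its receptor were not tested.

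**Figure D4:**
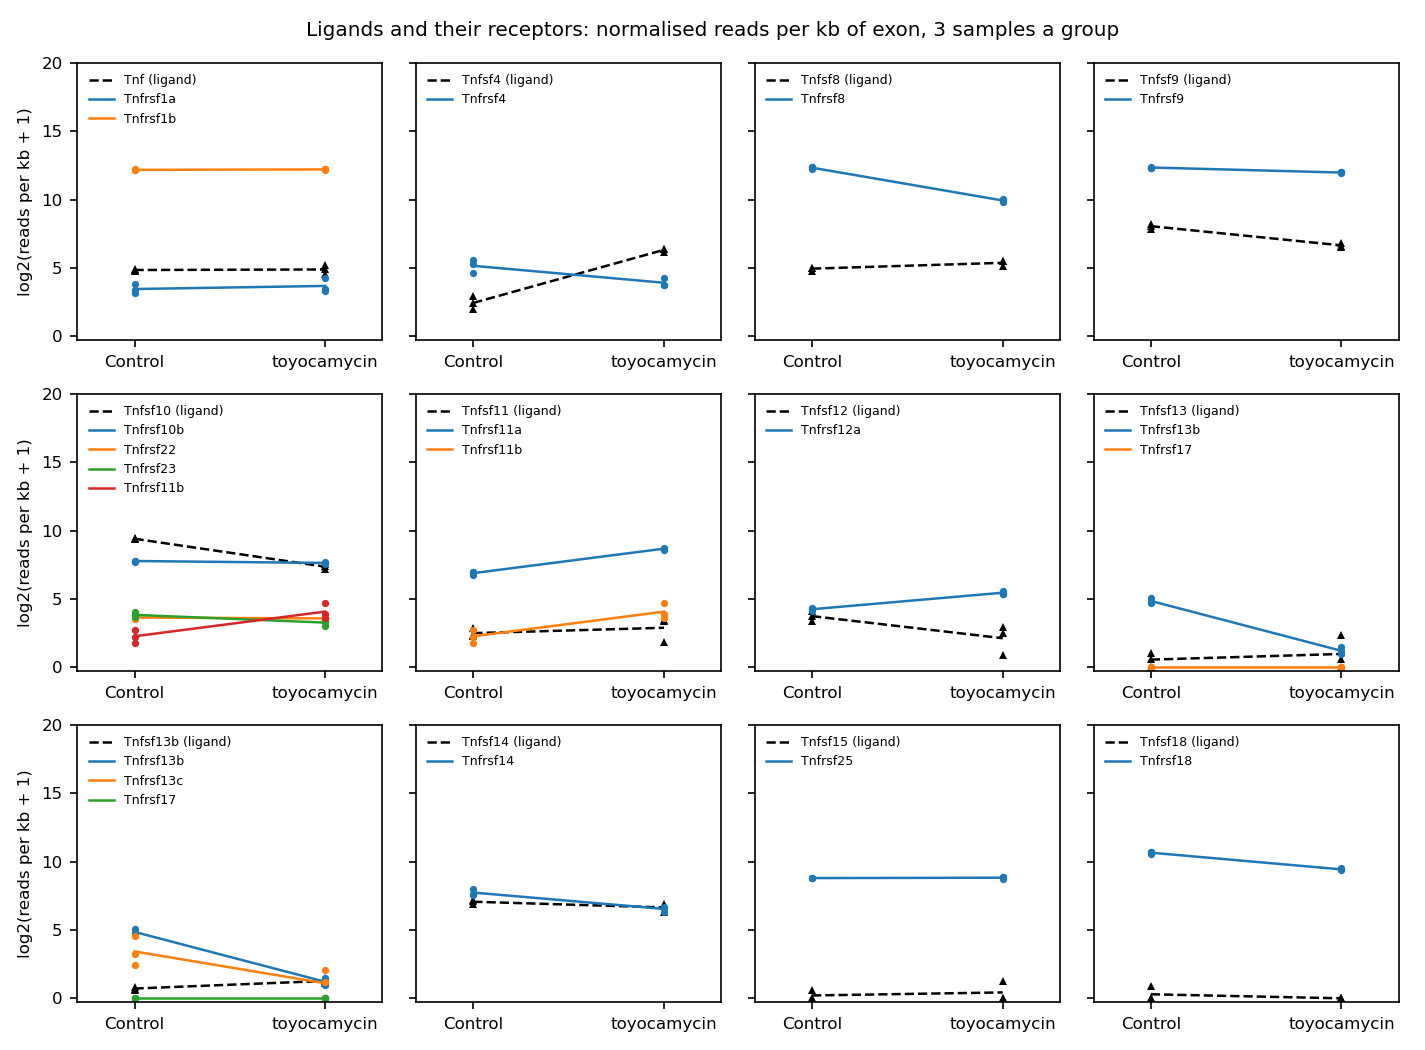
Each panel shows 1 ligand (dashed line, triangles) and its receptors (solid lines, circles) as log2(normalised reads per kb of exon + 1) in Control and with toyocamycin, with 3 samples a group and lines between group means of the log2 values. The lines of Tnfsf4 and Tnfrsf4 cross, and the Tnfsf10 line falls from above to below that of Tnfrsf10b.

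The 4 members that were not tested had few or no reads. Tnfsf13os, antisense to Tnfsf13, had 5 reads in Control and 1 with toyocamycin. Tnfsf18 had 2 reads in all, and Tnfrsf17 and Tnfsfm13 had none. At 3 reads, a library here would show a normalised value of 2.54 to 3.96. Such limits speak only of counting error, because reads that carry no molecular identifier need not be independent molecules. By position, 9 of the 34 members lie on chromosome 4, 5 each on chromosomes 11 and 17.

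Among 14 family genes whose symbols do not carry the prefix, 12 were tested, 4 rose and 3 fell, a share near the 65.9% of all genes called. With equal totals 4 rose and 4 fell. Fasl, which encodes the ligand of the death receptor Fas, rose 13.3-fold, with means of 3.23 ± 3.31 and 42.8 ± 12.3 (log2 change 3.61, SE 0.59, adjusted p = 1.29e-05). Control replicate 2 held 8 of the 11 Control reads, and without it the log2 change was 4.22. The lymphotoxin genes Lta and Ltb rose from 32.0 ± 7.66 to 95.7 ± 23.5 and from 161 ± 28.6 to 294 ± 30.6. Eda2r, a receptor of ectodysplasin and a p53 target, rose 6.26-fold. Cd27, a costimulatory receptor, fell 3.68-fold and the receptor gene Relt 2.46-fold. Fas fell 1.13-fold with overlapping groups (log2 change -0.18, adjusted p = 0.0482), a call lost in 8 of 16 alternatives. Ngfr was at 0 in all samples.

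Among 48 genes of TNF receptor signalling, 19 rose and 20 fell, against 32.8% and 33.1% of all genes. With equal totals 15 rose and 30 fell, where all genes gave 4040 and 6897 of 16245. The 48 had a median log2 change of -0.02 with the deposited scaling (all genes -0.03). Of the adaptors, Tradd and Fadd, which link death domains to caspase-8, fell 3.08-fold and 3.33-fold, and Ripk3 fell 1.8-fold. Edaradd, the adaptor of the ectodysplasin receptor, fell most, 4.06-fold from 47.0 ± 7.64 to 11.6 ± 1.76. Traf6 rose 2.45-fold, Traf4 2.1-fold and Traf3, a brake on the noncanonical NF-kappaB route, 1.7-fold, while Traf1 fell 1.7-fold. Traf5 fell 1.52-fold (log2 change -0.58, adjusted p = 0.0429), a call that ended in 6 of 16 alternatives, with -0.06 after quantile normalization and -0.34 without Control replicate 1. Traf2 (log2 change 0.15, adjusted p = 0.0238) and Ripk1 (0.19, adjusted p = 0.0076) were called higher, but lower with equal totals (-0.20 and -0.16) and quantile normalization (-0.23 and -0.19). The call of Traf2 also ended with edgeR without a filter (adjusted p = 0.126) and on leaving out replicate 1 or 2 of either group (adjusted p from 0.0515 to 0.0634). Cflar, which encodes the caspase-8 inhibitor c-FLIP, was 1.29-fold higher, a call that ended with equal totals (0.01) and turned to -0.09 with quantile normalization.

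Ubiquitin-editing and NF-kappaB genes moved in both directions. Tnfaip3 encodes A20, which ends NF-kappaB signalling by ubiquitin editing, and rose 7.77-fold, with means of 2823 ± 99.2 and 21942 ± 855 (log2 change 2.96, SE 0.051, adjusted p = 3.73e-20). The ubiquitin ligase genes Birc2 and Birc3 (cIAP1 and cIAP2) went in opposite directions, with Birc2 up 2.39-fold and Birc3 down 5.37-fold. Spata2 and Otulin rose 3.18-fold and 2.37-fold, and Rbck1 (HOIL-1, of the linear ubiquitin complex) fell 2.69-fold and Tnip2 1.21-fold. Of the NF-kappaB genes, Rel rose 9.66-fold from 469 ± 72.2 to 4528 ± 234, Nfkb1 1.82-fold and the kinase adaptor gene Tab2 5.26-fold. Relb and Nfkb2, the subunits of the noncanonical route, fell 3.56-fold and 1.64-fold. The IkappaB kinase genes did not move as one: Chuk (IKK-alpha) rose 1.76-fold, Ikbkb (IKK-beta) fell 1.63-fold, and Ikbkg, which encodes their regulatory subunit NEMO, fell 1.48-fold. Map3k7, which encodes the upstream kinase TAK1, rose 1.52-fold, and Tab1, one of its partners, fell 1.32-fold, a call that ended with quantile normalization (-0.03). Of the inhibitor genes, Nfkbib rose 1.77-fold and Nfkbie fell 1.69-fold. In the control of shedding, Rhbdf1 rose 5.21-fold, Rhbdf2 1.4-fold, the TNF sheddase gene Adam17 1.36-fold (a call that ended with equal totals and with quantile normalization), and the sheddase inhibitor gene Timp3 fell 2.13-fold from 659 ± 53.7 to 309 ± 151. Furin, which encodes a protease that cuts several ligands of the family, fell 1.17-fold.

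**Figure D5:**
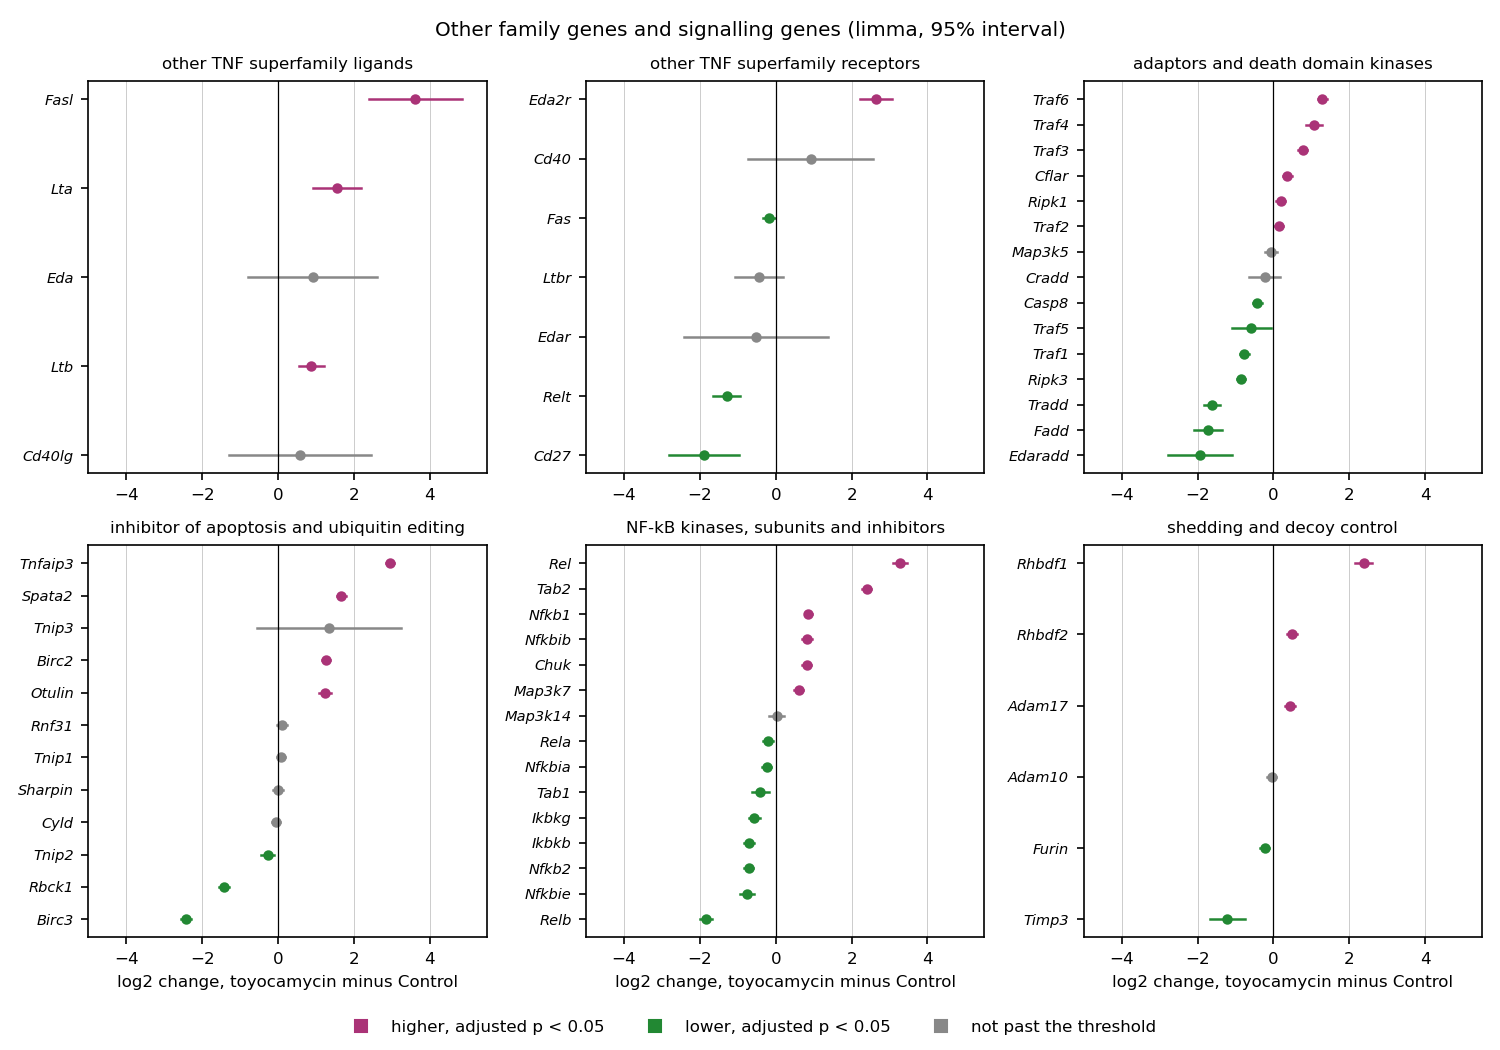
Panels show log2 changes, toyocamycin minus Control, with 95% limma intervals for the tested genes of 6 lists, coloured by the side of the threshold. Rel (3.28), Tnfaip3 (2.96) and Fasl (3.61) lie at the high end, and Birc3 (-2.42) at the low end.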

How the data were processed

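RNA-seq was made from 3 Control and 3 toyocamycin samples of ILC2s. Per the submitters' processing notes, reads were handled with cutadapt 4.7 and FastQC on build mm10; no source used here names the aligner, the counter or the strand setting. The deposited signal values, which the authors named FPKM, are gene counts divided by 1 size factor per sample: every value gave whole reads within 0.01 reads, so they carry no length scaling and are called normalised read counts.

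Computed here: limma 3.58.1 (R 4.3.3) with a mean-variance trend on log2(value + 1), which understates changes of low genes, for genes with a mean of at least 1, with 2-sided p-values adjusted by Benjamini-Hochberg across every gene tested. Alternatives were edgeR 4.0.16 and DESeq2 1.42.0 on the recovered reads, equal totals, quantile normalization, other pseudocounts and filters, a replicate block and leaving out each sample. The fit was tested on simulated data. Within groups, every pair of replicates differed more than the counting noise of independent reads allows (chi-square over degrees of freedom 3.96 to 7.76). Read counts of some low genes, such as Cd4 and Jchain, were even in all 6 samples, so reads may not be independent. Levels per kb used GENCODE vM21 exons, and positions and promoters RefSeq (GRCm38.p6, the same build as mm10). Every member with a mean of at least 1 is named with values; of each other list, genes named are those past the threshold among the 6 largest changes in each direction; cell type markers are given as sums, with single values for some. Members and lists were chosen with earlier results of these data known.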

Additional observations from a re-analysis of the deposited data

How the results depend on the processing

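Of the 17 called members, 12 kept their call and direction under every one of the 16 alternatives that gave a value; the exceptions were Tnfrsf4, Tnfrsf26, Tnfsf12, Tnfsf8 and Tnfsf14. Over the alternatives, 4 to 7 members were higher and 8 to 15 lower. With equal totals, signs turned for Tnfrsf21 (-0.24), Tnfrsf1a (-0.10), Tnfrsf1b (-0.32), Tnfrsf25 (-0.32), Tnf (-0.30), Ripk1 (-0.16) and Traf2 (-0.20), all log2 changes. With quantile normalization they turned for Tnfsf14 (0.093), Tnfrsf1b (-0.45), Tnfrsf22 (0.38), Tnfrsf19 (0.056), Cflar (-0.086), Ripk1 (-0.19) and Traf2 (-0.23). With edgeR, Tnfrsf1b was at -0.0075 and Tnfrsf25 at -0.013, and without a filter at -0.021 and -0.026. Leaving out single samples gave ranges that cross 0 for Tnfrsf1a (-0.048 to 0.42), Tnfrsf22 (-0.14 to 0.038), Tnf (-0.11 to 0.20) and Tnfrsf19 (-0.33 to 0.16). The cause was not tested. Deviations of same-numbered replicates correlated at -0.00795, 0.023 and -0.041 over all genes tested. Low genes, where counting noise is large, weigh as much there as high ones. Whether the numbers pair the samples therefore cannot be told from these correlations. With the replicate block, 5 members were higher and 11 lower, 19 and 20 signalling genes, and 5272 and 5298 of all genes. Depth limits the members under about 10 normalised reads.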
